A study of Homo sapiens with 16 samples.

Results

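The 30 genes described here make cholesterol and fatty acids or control that synthesis, and they were taken as listed symbols from the 58735 genes of the deposited tables. Of these, 18 encode enzymes of the sterol pathway, 7 in the mevalonate part and 11 in the squalene and ring part. Another 8 encode enzymes of fatty acid synthesis, elongation and desaturation, and 4 act in regulation or sterol transport. All 30 are protein-coding and reached 1 FPKM in at least 2 libraries, as did 16284 genes in all. FPKM is reads per kilobase of gene, scaled to library size, so it allows levels of different genes to be compared.

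RNA was sequenced from 2 human lung adenocarcinoma lines grown in culture, NCI-H1975 and HCC827, which both carry activating mutations of the receptor kinase EGFR. NCI-H1975 cells were treated with a chloroform fraction of Flos Magnoliae (magnolia flower buds, dried) or with magnolin, a lignan found in them, or were left as controls, with 4 libraries a group. The labels give the NCI-H1975 genotype as WT in every group and name neither dose nor time. Parental HCC827 cells, also labelled WT, gave 2 libraries. NCI-H1975 replicates 1 and 2 stand in 1 deposited table (set A) and replicates 3 and 4 in another (set B). HCC827 stands in a table of its own, and afatinib-resistant HCC827 cells were not analysed here. Nothing says that replicates came from separate cultures, so p-values measure the spread between these libraries, which may be technical.

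Cholesterol is built from acetyl-CoA through mevalonate, isoprenoid units and squalene, which is closed into lanosterol and trimmed to the final sterol. Fatty acids start from the same acetyl-CoA, which ACLY and ACSS2 supply to the cytosol and ACACA and FASN turn into palmitate for ELOVL6, SCD, FADS1 and FADS2 to modify. Both arms are driven by SREBP transcription factors, SREBF2 acting mainly on sterol genes and SREBF1 more on fatty acid genes, while INSIG1 holds their precursors in the endoplasmic reticulum when sterols are plentiful.

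Libraries held between 15.9 M reads (HCC827) and 21.3 M reads (set A), with 15.96 M to 17.04 M for those of set B. The median difference of a member between the 2 libraries of a group was 0.23 to 0.31 on the log2 scale in set A, 0.087 to 0.16 in set B and 0.072 in HCC827. In set A the replicate 1 libraries stood apart. The epithelial adhesion gene EPCAM was at 178 FPKM with the fraction, 172 with magnolin and 193 in control of replicate 1, against 11.6, 9.62 and 14.4 FPKM in the same order in replicate 2. The sum of 6 epithelial markers (KRT8, KRT18, KRT19, EPCAM, CDH1 and CLDN4) was 1591 to 1736 FPKM in HCC827, 884 to 1018 in replicate 1, 352 to 528 in replicate 2 and 367 to 577 in set B. Lung lineage markers (NKX2-1, SFTPB, SFTPC and NAPSA) summed to 107 to 116 FPKM in HCC827 and to 1.79 to 9.24 in NCI-H1975. Leukocyte markers (PTPRC, CD3E and CD68) summed to at most 0.283 FPKM in every library. Fibroblast markers (COL1A1, COL3A1 and DCN) summed to 1.39 to 3.12 FPKM, nearly all of it COL1A1, with DCN at 0 to 0.00899 FPKM. Endothelial markers (PECAM1, VWF and CDH5) summed to 0.134 to 6.24 FPKM, highest in set B control.

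Promoter sequences were available from RefSeq (GRCh38.p14) for 26 of the 30 genes, from 250 bases before to 50 bases after a start. They were searched on both strands for CCAAT, the box bound by NF-Y, which works beside SREBP, for TCACNCCA, the core of the sterol regulatory element, and for CACGTG, an E-box. None of these motifs contains another. CCAAT was found in 21 of 26 genes (80.8%), against 39.7% of the 27305 genes in the table and 42.1% of its 15843 protein-coding genes. TCACNCCA was found in 3 of 26 (11.5%), MSMO1, MVK and SREBF2, against 4.81% of all genes. CACGTG was found in 3 of 26, INSIG1, LSS and SC5D, against 8.78% of all genes. The stretches below lie before the start of a mevalonate gene that fell with the fraction, a second one that fell, a desaturase gene that rose and the sterol regulator gene itself. They are written 5′ to 3′ on the gene's strand, with CCAAT on either strand (ATTGG on the opposite one) and TCACNCCA in capitals. They lie at chr5:43313513-43313662 (minus strand) for HMGCS1, chr1:155308616-155308747 (plus strand) for FDPS, chr10:100346983-100347123 (plus strand) for SCD and chr22:41832879-41833078 (plus strand) for SREBF2.
HMGCS1: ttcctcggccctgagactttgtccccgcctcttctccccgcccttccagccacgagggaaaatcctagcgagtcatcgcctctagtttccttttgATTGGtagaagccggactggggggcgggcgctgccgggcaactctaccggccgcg
FDPS: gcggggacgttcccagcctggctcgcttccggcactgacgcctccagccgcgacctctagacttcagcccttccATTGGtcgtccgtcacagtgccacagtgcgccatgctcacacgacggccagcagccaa
SCD: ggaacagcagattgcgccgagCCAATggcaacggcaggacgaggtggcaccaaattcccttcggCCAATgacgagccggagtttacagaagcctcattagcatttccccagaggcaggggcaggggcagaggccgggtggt
SREBF2: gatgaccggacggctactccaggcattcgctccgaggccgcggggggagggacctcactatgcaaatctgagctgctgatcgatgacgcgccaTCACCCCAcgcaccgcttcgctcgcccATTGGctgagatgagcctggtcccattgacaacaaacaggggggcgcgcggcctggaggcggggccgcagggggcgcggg
The sterol genes and the desaturase gene share the CCAAT letters, and of the 4 only SREBF2 also shows TCACNCCA in its stretch.

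With the chloroform fraction, part of the sterol enzymes fell in set B and the desaturase SCD rose. HMGCS1 and ACAT2, at the head of the mevalonate pathway, ELOVL6, a fatty acid elongase, and the sterol enzymes EBP, HSD17B7, FDFT1 and FDPS were lower, by 0.34 to 0.80 on the log2 scale. SCD, ACSS2 and TM7SF2 were higher, by 0.42 to 0.78. Changes were tested with limma on log2(FPKM + 1), with p-values adjusted by the Benjamini-Hochberg method over 14673 genes and a threshold of 0.05. Of the 30 members, 7 fell and 3 rose, while 11.6% of all genes tested fell and 8.33% rose. Among sterol enzymes 6 of 18 fell and 1 rose, with a median log2 change of -0.21 and 15 of 18 values below 0. Among fatty acid enzymes 2 of 8 rose and 1 fell, with a median of 0.09, and none of the 4 regulators passed. The median over all genes tested was -0.01.

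**Figure D1:**
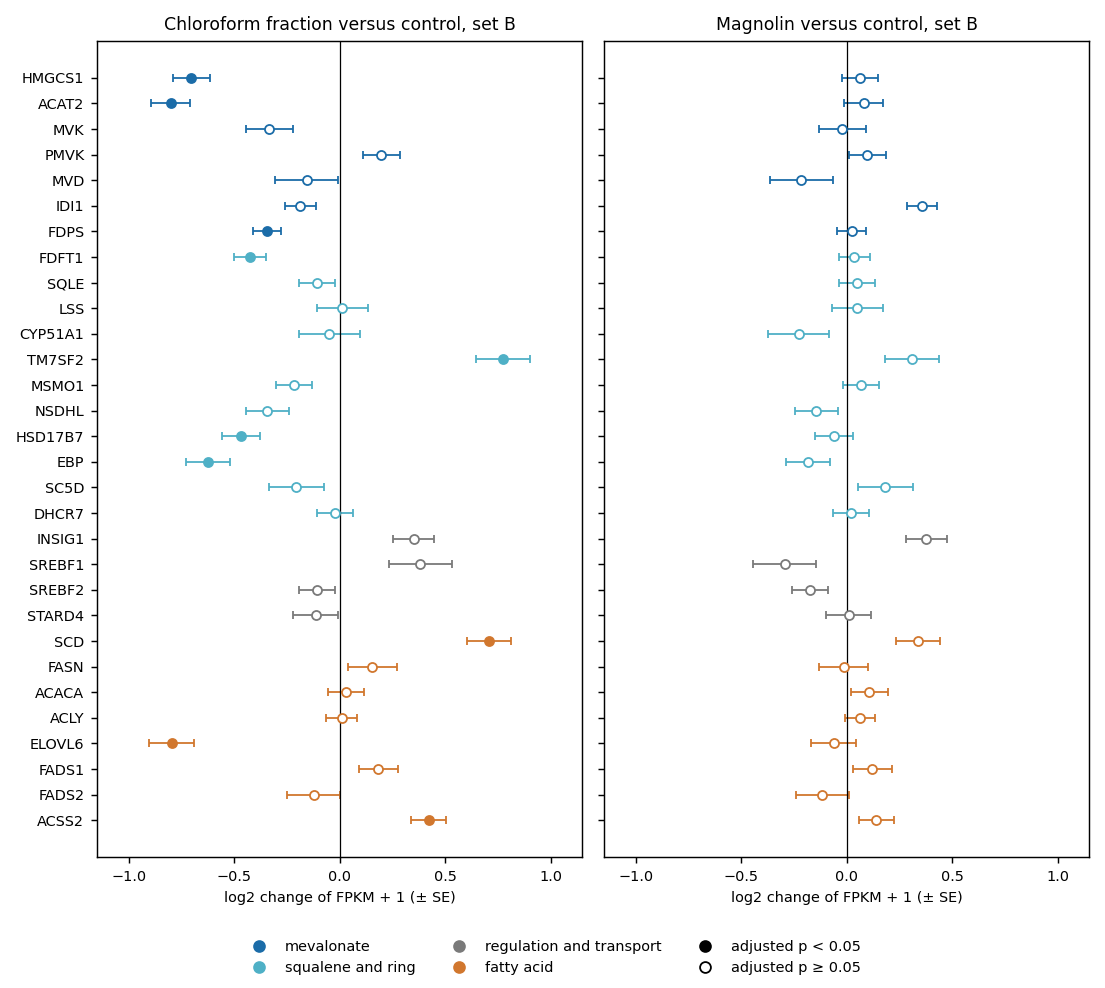
Log2 change of FPKM + 1 with its standard error for the 30 members in set B, the chloroform fraction against control on the left and magnolin against control on the right (2 libraries a group). Filled points passed an adjusted p of 0.05 in limma: 7 members lie below 0 and 3 above with the fraction, and none is filled with magnolin.

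Of the 7 mevalonate enzymes, 3 fell with the fraction in set B and the median log2 change was -0.33. HMGCS1, which joins acetyl-CoA to acetoacetyl-CoA (chromosome 5, 43289395 to 43313512, hg38), was at 31.5 and 27.4 FPKM with the fraction, 49.6 and 51.7 with magnolin and 49.3 and 47.6 in control. The fraction libraries lay below all others of set B (log2 change -0.70, SE 0.087, adjusted p = 0.00472). ACAT2, which makes the acetoacetyl-CoA (chromosome 6, 159760328 to 159779055), was at 8.21 and 7.01 FPKM with the fraction, 14.9 and 14.8 with magnolin and 14.4 and 13.6 in control. It too was lowest in both fraction libraries (log2 change -0.80, SE 0.093, adjusted p = 0.00392). ACAT2 shares 397 exon bases, 9.23% of its length, with the chaperonin gene TCP1 on the opposite strand, which averaged 38.1 FPKM with the fraction, 62.5 with magnolin and 59.9 in control. Reads of such overlaps cannot be told apart where strand was not used, and the counting rule is not given in the sources used here; 10 of the 30 members share exon bases with another gene at 1 FPKM or more. FDPS, which makes farnesyl diphosphate, was at 22.6 and 23.5 FPKM with the fraction, 29.3 and 30.7 with magnolin and 29.3 and 29.7 in control. Its fraction libraries were again the lowest (log2 change -0.34, SE 0.069, adjusted p = 0.0203), and 18.6% of its exon bases are shared with an antisense RNA at 3.22 FPKM with the fraction, 2.76 with magnolin and 3.14 in control.

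The other 4 mevalonate enzymes did not pass. IDI1, which interconverts the isoprenoid units, was at 12.5 and 12.7 FPKM with the fraction, 18.6 and 18.97 with magnolin and 14.05 and 14.9 in control, so that magnolin gave the highest values (fraction against control, log2 change -0.19, SE 0.071, adjusted p = 0.123). The mevalonate kinase MVK averaged 3.62 ± 0.51 FPKM with the fraction and 4.81 ± 0.44 in control (SD, n = 2 each; adjusted p = 0.0908 in limma). PMVK, the next kinase, averaged 29.7 ± 2.3 FPKM with the fraction and 25.7 ± 1.9 in control. MVD, the decarboxylase, averaged 8.54 ± 2.0 FPKM with the fraction and 9.53 ± 0.30 in control.

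In the squalene and ring part, 3 of 11 enzymes fell with the fraction and 1 rose, with a median log2 change of -0.21. FDFT1, squalene synthase, was at 28.8 and 27.9 FPKM with the fraction, 40.6 and 38.4 with magnolin and 36.96 and 40.03 in control. Groups did not overlap between fraction and control (log2 change -0.43, SE 0.075, adjusted p = 0.0139). HSD17B7, a ketoreductase of sterol demethylation, was at 3.097 and 3.33 FPKM with the fraction, 4.401 and 4.75 with magnolin and 4.700 and 4.94 in control (log2 change -0.47, SE 0.090, adjusted p = 0.0183). EBP, the isomerase that moves the ring double bond, was at 24.6 and 30.02 FPKM with the fraction, 36.02 and 38.3 with magnolin and 42.4 and 42.4 in control (log2 change -0.62, SE 0.10, adjusted p = 0.0121). For EBP, magnolin libraries stood between the fraction and control.

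TM7SF2 went the other way. It encodes a sterol C14 reductase (chromosome 11, 65111845 to 65116384) and had the lowest level of all members in set B control. It was at 3.89 and 4.21 FPKM with the fraction, 2.32 and 3.03 with magnolin and 1.93 and 1.97 in control, with the 3 groups apart from one another (log2 change 0.78, SE 0.13, adjusted p = 0.0112). SQLE, the squalene epoxidase that limits flux into sterols, was at 26.6 and 23.6 FPKM with the fraction, 27.2 and 28.9 with magnolin and 27.7 and 26.5 in control, and fraction and control overlapped (log2 change -0.11, SE 0.085, adjusted p = 0.425).

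The remaining ring enzymes did not pass with the fraction in set B. NSDHL, which removes a ring carboxyl group, averaged 18.2 ± 1.4 FPKM with the fraction and 23.4 ± 2.8 in control (SD, n = 2 each; log2 change -0.34, SE 0.10, adjusted p = 0.0664). MSMO1, the methyl oxidase that feeds NSDHL, averaged 43.3 ± 4.2 FPKM with the fraction and 50.4 ± 0.66 in control. SC5D, a ring desaturase, averaged 10.8 ± 2.0 FPKM with the fraction and 12.5 ± 0.096 in control. Log2 changes nearest to 0 were those of LSS, which closes the ring (0.01), CYP51A1, the lanosterol demethylase (-0.05), and DHCR7, a late reductase (-0.02).

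Among the regulators, INSIG1 and SREBF1 had values above control with the fraction that missed the threshold. INSIG1 was at 52.1 and 46.7 FPKM with the fraction, 51.7 and 48.7 with magnolin and 41.3 and 35.8 in control. Both treatments lay above control without overlap (log2 change 0.35, SE 0.098, adjusted p = 0.0554 for the fraction). SREBF1 was at 20.5 and 24.6 FPKM with the fraction, 15.2 and 12.3 with magnolin and 18.8 and 15.4 in control, with fraction highest and magnolin lowest (log2 change 0.38, SE 0.15, adjusted p = 0.131 for the fraction). SREBF2 was at 38.3 and 40.9 FPKM with the fraction, 39.5 and 36.01 with magnolin and 44.5 and 40.9 in control, with replicate 4 of the fraction and of control at one level (log2 change -0.11, SE 0.084, adjusted p = 0.414). STARD4, a carrier of sterols between membranes, averaged 10.1 ± 0.94 FPKM with the fraction and 11.02 ± 1.3 in control.

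The 8 fatty acid enzymes did not move as a block in set B. SCD, which puts the double bond into stearate (chromosome 10, 100347124 to 100364834), was the most abundant member in NCI-H1975 control and in HCC827. It was at 196 and 165 FPKM with the fraction, 144 and 134 with magnolin and 115 and 105 in control, in that order without overlap (log2 change 0.71, SE 0.10, adjusted p = 0.00818 for the fraction). ACSS2, which makes acetyl-CoA from acetate, was at 18.2 and 16.5 FPKM with the fraction, 14.6 and 13.6 with magnolin and 12.6 and 12.7 in control. These groups followed the same order as those of SCD (log2 change 0.42, SE 0.083, adjusted p = 0.0198). ELOVL6, which lengthens palmitate (chromosome 4, 110045846 to 110199199), was at 16.9 and 13.8 FPKM with the fraction, 26.7 and 25.5 with magnolin and 28.3 and 26.3 in control. It fell with the fraction alongside the sterol enzymes (log2 change -0.80, SE 0.11, adjusted p = 0.00587).

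The enzymes that make palmitate did not pass. FASN, the synthase, was at 68.7 and 84.98 FPKM with the fraction, 70.95 and 64.8 with magnolin and 71.3 and 65.8 in control, and the groups overlapped (log2 change 0.16, SE 0.12, adjusted p = 0.394). ACLY, the citrate lyase, was at 58.3 and 58.1 FPKM with the fraction, 57.7 and 63.5 with magnolin and 57.3 and 58.4 in control (log2 change 0.01, SE 0.072, adjusted p = 0.947). The carboxylase ACACA averaged 12.97 ± 0.99 FPKM with the fraction and 12.7 ± 0.11 in control. For the polyunsaturated fatty acid desaturases, FADS1 averaged 22.7 ± 1.8 FPKM with the fraction and 19.9 ± 1.5 in control, and FADS2 averaged 8.32 ± 0.013 FPKM with the fraction and 9.17 ± 0.77 in control.

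Other measures moved with the fraction, and part of them with magnolin, in the same libraries of set B. Reads of mitochondrial genes made up 8.17% and 7.04% of each fraction library, 6.40% and 6.38% with magnolin and 5.84% and 5.83% in control. The 6 epithelial markers summed to 367 and 396 FPKM with the fraction, 411 and 403 with magnolin and 577 and 567 in control. Of these, 2 fell with the fraction in limma and none rose. They were KRT8 (log2 change -0.87, SE 0.060, adjusted p = 0.000833) and KRT18 (log2 change -0.75, SE 0.065, adjusted p = 0.00178). With magnolin against control 2 of the 6 fell too, where 0.627% of all genes passed. The median log2 change of the 6 was -0.51 with magnolin and -0.26 with the fraction. Set against magnolin, the fraction had 3 of the 6 higher and 1 lower, beside 5.55% and 9.36% of all genes. The 3 fibroblast markers (COL1A1, COL3A1 and DCN) summed to 1.76 and 1.93 FPKM with the fraction, 2.498 and 2.605 with magnolin and 2.99 and 3.12 in control, nearly all of it COL1A1, the 1 that fell, while COL3A1 and DCN were at or near 0. The 3 endothelial markers (PECAM1, VWF and CDH5) summed to 0.943 and 0.832 FPKM with the fraction, 1.69 and 1.47 with magnolin and 6.24 and 4.29 in control. Of these CDH5 fell (log2 change -2.08, SE 0.21, adjusted p = 0.00268), and VWF was at most 0.0591 FPKM. Their part in the members' changes was not tested, and in bulk RNA fewer cells of a type and less RNA per cell cannot be told apart. Fewer members passed without control replicate 3 or without control replicate 4, and so did fewer genes over all. Leaving out a fraction library, which also leaves 1 library in a group, did not lower the number of members that passed. Why these fits differ was not tested. The median log2 change over the 30 members was -0.06 without control replicate 3 and -0.16 without control replicate 4, against -0.11 with all libraries. It was -0.09 without fraction replicate 3 and -0.12 without fraction replicate 4.

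Sterol and fatty acid arms can be set side by side in each library as the mean log2(FPKM + 1) of the 8 fatty acid enzymes minus that of the 18 sterol enzymes. In set B this difference was 1.08 and 0.94 with the fraction, 0.81 and 0.71 with magnolin and 0.73 and 0.69 in control. Both fraction libraries lay above the other 4, by a mean of 0.30 over control with a pooled SD of 0.07. The sterol mean was 3.89 and 3.96 with the fraction, 4.16 and 4.19 with magnolin and 4.16 and 4.13 in control, while the fatty acid mean was 4.98 and 4.89 with the fraction, 4.97 and 4.89 with magnolin and 4.90 and 4.82 in control. The fraction thus stood apart in the sterol mean and overlapped with magnolin and control in the fatty acid mean. In set A the same difference was 0.75 and 0.52 with the fraction, 0.49 and 0.55 with magnolin and 0.74 and 0.21 in control, so that the control libraries spanned all others but fraction replicate 1. No test was made on these means.

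**Figure D2:**
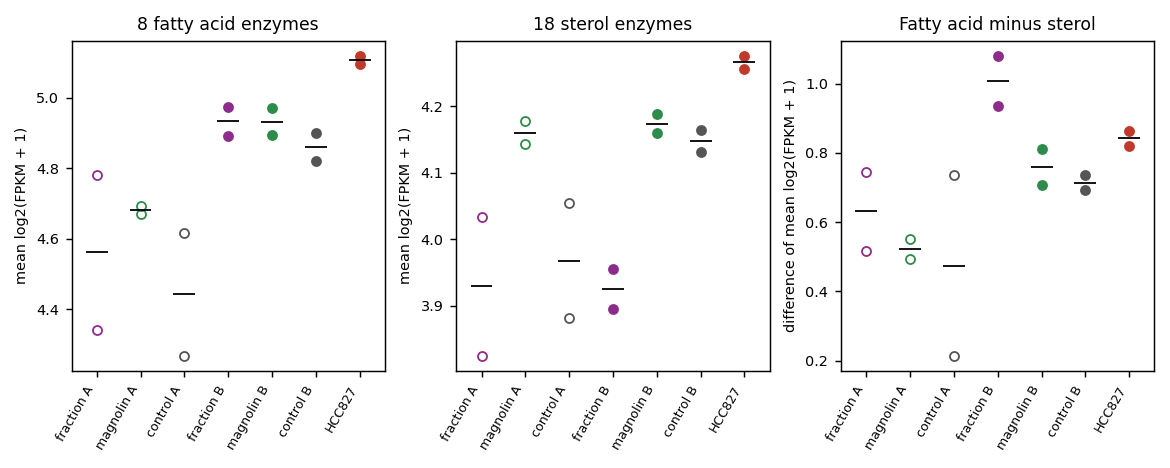
Mean log2(FPKM + 1) of the 8 fatty acid enzymes (left), of the 18 sterol enzymes (middle) and their difference (right) in each library, by group and set, with the mean of the 2 libraries as a bar. In set B the fraction lies at 1.08 and 0.94 in the right panel, above control at 0.73 and 0.69, and its sterol mean is below control.

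Set directly against magnolin in set B, the fraction gave lower levels of 7 of 18 sterol enzymes and of ELOVL6. In this comparison 8 members fell and 1 rose, while 9.36% of all genes fell and 5.55% rose. After a median-ratio rescaling of the libraries the split over all genes was 976 lower and 1001 higher, against 1374 lower and 814 higher as deposited. Of the members, 6 were then lower (ACAT2, ELOVL6, FDFT1, FDPS, HMGCS1 and IDI1) and 4 higher (ACSS2, SCD, SREBF1 and TM7SF2), and the median over the 30 was 0.00, against -0.07 as deposited. Those that fell were ACAT2 (-0.88), HMGCS1 (-0.77), ELOVL6 (-0.74), IDI1 (-0.54), FDFT1 (-0.46), EBP (-0.44), HSD17B7 (-0.40) and FDPS (-0.37), with log2 changes in brackets and adjusted p from 0.00552 for ACAT2 to 0.04299 for EBP in limma. By role, 4 of 7 mevalonate enzymes and 3 of 11 ring enzymes fell. SREBF1 was the member that rose (log2 change 0.68, SE 0.15, adjusted p = 0.0362). IDI1 differed here (log2 change -0.54, SE 0.071, adjusted p = 0.0101) and did not pass against control for either treatment. The median log2 change was -0.30 over sterol enzymes, 0.03 over fatty acid enzymes and -0.02 over all genes. Fewer members passed when a magnolin or a control library was left out, and so did fewer genes over all. Leaving out a fraction library, which also leaves 1 library in a group, did not lower the number of members that passed. The reason was not tested. The median log2 change over the 30 members was -0.07 without magnolin replicate 3 and -0.11 without magnolin replicate 4, against -0.07 with all libraries. It was -0.11 without fraction replicate 3 and -0.10 without fraction replicate 4.

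Magnolin against control in set B gave 0 of 30 members by limma, while 0.627% of all genes passed in either direction. Without adjustment 3 members had a p under 0.05, and voom on reads rebuilt from FPKM also called 0 members. The values farthest above control were those of INSIG1 (log2 change 0.38, SE 0.098, adjusted p = 0.181), IDI1 (log2 change 0.36, SE 0.071, adjusted p = 0.105) and SCD (log2 change 0.34, SE 0.10, adjusted p = 0.242). In all of these both magnolin libraries exceeded both control libraries. HMGCS1 (0.06), ACAT2 (0.08) and ELOVL6 (-0.06), which fell with the fraction, had log2 changes near 0 with magnolin. The median was 0.04 over sterol enzymes, 0.09 over fatty acid enzymes and 0.01 over all genes.

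In set A, where replicates 1 and 2 differ widely, limma called 0 members for the fraction against control, 0 for magnolin against control and 0 for the fraction against magnolin, as it did over all genes (0.0% in each). Members with an unadjusted p under 0.05 numbered 0, 1 and 1 in that order, and voom called 0 in each. HMGCS1 was at 21.95 and 39.5 FPKM with the fraction, 23.8 and 41.8 with magnolin and 36.6 and 45.5 in control. ACAT2 was at 10.1 and 13.3 FPKM with the fraction, 10.7 and 11.6 with magnolin and 10.5 and 17.9 in control. In both genes the fraction was below control of the same replicate number, and across numbers the groups overlapped. ELOVL6 was at 19.8 and 24.8 FPKM with the fraction, 17.9 and 19.3 with magnolin and 23.7 and 27.04 in control. SCD was at 128 and 72.5 FPKM with the fraction, 134 and 125 with magnolin and 129 and 64.4 in control, so only magnolin stayed high in both replicates. TM7SF2 was at 3.36 and 1.09 FPKM with the fraction, 5.69 and 5.17 with magnolin and 0.988 and 1.08 in control.

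For TM7SF2 both magnolin libraries of set A thus lay above all others of the set. With the replicate number as a block, which pairs the libraries of set A, it was the 1 member to pass for magnolin against control (log2 change 1.66, SE 0.24, adjusted p = 0.00564 in limma), where 0.992% of all genes passed. Among the other named sterol enzymes of set A, FDFT1 was at 33.6 and 31.9 FPKM with the fraction, 37.7 and 37.6 with magnolin and 34.8 and 39.5 in control. SQLE was at 26.4 and 22.1 FPKM with the fraction, 34.3 and 28.00 with magnolin and 31.9 and 25.3 in control. In each of these 2 genes the fraction library was the lowest of its replicate number. HSD17B7 was at 2.48 and 2.58 FPKM with the fraction, 3.26 and 2.36 with magnolin and 3.095 and 4.29 in control. EBP was at 41.9 and 39.6 FPKM with the fraction, 42.7 and 38.6 with magnolin and 36.96 and 56.8 in control. FDPS was at 24.04 and 23.8 FPKM with the fraction, 21.7 and 23.3 with magnolin and 16.5 and 25.3 in control. For EBP and FDPS the side of control on which the fraction fell depended on the replicate number.

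Among regulators in set A, INSIG1 was at 54.2 and 52.7 FPKM with the fraction, 53.01 and 46.5 with magnolin and 50.5 and 37.6 in control, with the fraction highest in each replicate number. SREBF1 was at 13.4 and 9.11 FPKM with the fraction, 10.3 and 12.7 with magnolin and 10.8 and 10.8 in control. SREBF2 was at 22.1 and 24.04 FPKM with the fraction, 20.3 and 37.1 with magnolin and 20.1 and 26.5 in control. Levels of both transcription factor genes overlapped between groups. In the fatty acid arm FASN was at 69.05 and 37.3 FPKM with the fraction, 56.7 and 54.1 with magnolin and 52.5 and 34.6 in control. ACLY was at 89.05 and 43.3 FPKM with the fraction, 71.5 and 50.2 with magnolin and 72.9 and 40.7 in control. Both genes were higher in replicate 1 than in replicate 2 of every group. ACSS2 was at 11.6 and 9.72 FPKM with the fraction, 12.2 and 14.8 with magnolin and 8.92 and 9.97 in control. IDI1 was at 18.5 and 17.1 FPKM with the fraction, 24.7 and 16.8 with magnolin and 23.4 and 16.5 in control. The other members ranged in set A from 1.29 FPKM, for CYP51A1 in control, to 52.2 FPKM, for DHCR7 with magnolin.

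**Figure D3:**
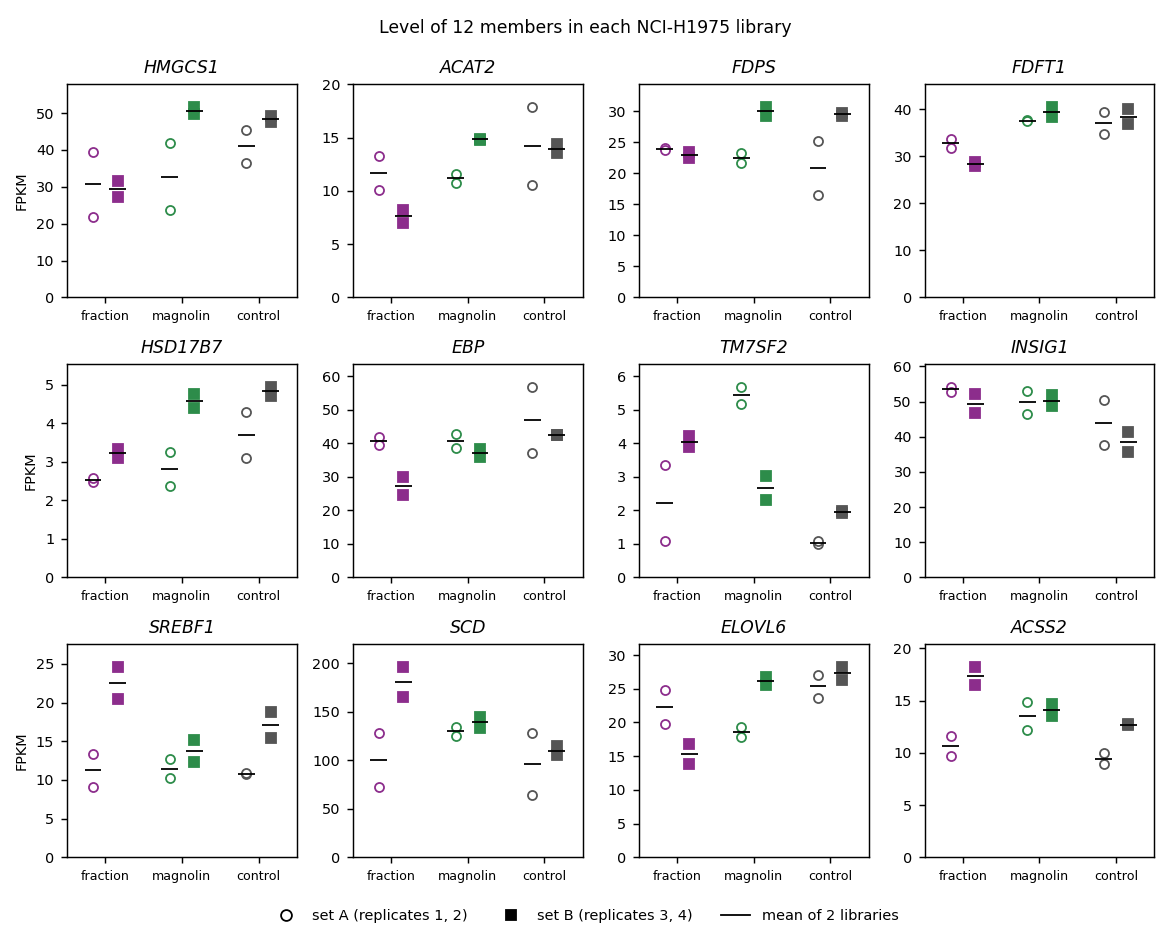
FPKM of 12 members in each NCI-H1975 library by group, set A as open circles and set B as filled squares, with bars at the mean of 2 libraries. HMGCS1, ACAT2 and ELOVL6 are lowest with the fraction in set B (27.4 to 31.5, 7.01 to 8.21 and 13.8 to 16.9 FPKM), while HMGCS1 in the fraction libraries of set A spans 21.95 to 39.5 FPKM.

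Fitting both sets together, with a block for each replicate number, limma called 0 members for the fraction against control, where 0.156% of all genes passed. It also called 0 for magnolin against control and 0 for the fraction against magnolin, where 0.0% of all genes passed in each. Members with an unadjusted p under 0.05 numbered 8, 3 and 7 in that order, and voom called 0 in each. For the fraction, this fit gave values for HMGCS1 (log2 change -0.58, SE 0.15, adjusted p = 0.14), ACAT2 (log2 change -0.52, SE 0.18, adjusted p = 0.212), HSD17B7 (log2 change -0.43, SE 0.12, adjusted p = 0.156) and INSIG1 (log2 change 0.32, SE 0.095, adjusted p = 0.167). The fit includes the set B libraries, so a side shared with set B is no separate evidence. Whether a change differed between the sets was tested as the interaction of treatment and set, in a fit without the replicate block. It called 0 members for the fraction against control and 0 for magnolin against control, with 0.0% of all genes in each, and 0 for the fraction against magnolin, with 0.00648% of all genes. Without adjustment 1, 1 and 5 members had a p under 0.05 in that order. SEs were as wide as 0.44 on the log2 scale for HMGCS1, so a difference of that size was not detectable in this fit. The fit leaves the gap between the replicate numbers of set A in the spread. For HMGCS1, fraction against control in set A had an SE of 0.40 without the block and 0.21 with it. An interaction with the block was not run, so the 0 calls do not show that the sets responded alike.

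Direction over the 4 same-numbered pairs of libraries was the same for part of the members. With the fraction, 7 of 30 were below control in every pair (ACAT2, ELOVL6, FDFT1, HMGCS1, HSD17B7, MSMO1 and SQLE), against 13.2% of all genes. Sterol enzymes made up 6 of these 7, which is 6 of 18, with 1 of 8 fatty acid enzymes. A further 3 were above control in every pair (FADS1, INSIG1 and TM7SF2), against 13.2% of all genes. After median-ratio rescaling 6 were above, with ACACA, ACLY and SCD added, beside 2223 of all 15428 genes. Without replicate 1, whose libraries stood apart, 13 members were below and 4 above in the remaining 3 pairs, beside 3517 and 3370 of all 15428 genes. With magnolin, 9 members were above control in every pair (ACSS2, DHCR7, FADS1, IDI1, INSIG1, LSS, PMVK, SCD and TM7SF2), against 10.8% of all genes. After rescaling 6 were above, without DHCR7, FADS1 and PMVK, beside 1578 of all 15428 genes. ELOVL6 was the 1 member below in every pair, against 8.72% of all genes. INSIG1 and TM7SF2 lay above control in every pair with both treatments, also after rescaling. FADS1 did so as deposited, and after rescaling with the fraction but not with magnolin. The treatments share the control libraries. In the replicate 2 pair TM7SF2 was nearly level with the fraction, at 1.09 FPKM against 1.08 in control.

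HCC827 cells held SCD, FASN, ACACA and ACLY at higher levels than any NCI-H1975 library. Because the tables were normalized separately, levels are set side by side with no test. Both HCC827 libraries were above all 12 NCI-H1975 libraries for 12 of 30 members, against 16.1% of all genes, and below all 12 for 3 members, against 21.5%. After rescaling over the 14 libraries 13 members lay above, MSMO1 joining, and 2 below, without SQLE, while over all genes 3203 lay above and 2915 below, against 2626 above and 3504 below as deposited. The 12 were 4 of 8 fatty acid enzymes (SCD, FASN, ACACA and ACLY), 6 of 18 sterol enzymes (DHCR7, FDFT1, FDPS, HSD17B7, MVD and MVK) and the regulators INSIG1 and SREBF1. SCD was at 266 and 286 FPKM in HCC827, against 64.4 to 196 (median 128) in NCI-H1975. FASN was at 149 and 153 FPKM in HCC827, against 34.6 to 84.98 (median 65.3) in NCI-H1975. SREBF1 was at 41.4 and 47.2 FPKM in HCC827, against 9.11 to 24.6 (median 13.01) in NCI-H1975. These 3 genes did not overlap between the lines. The mean of HCC827 over the NCI-H1975 median was 2.15-fold for SCD, 2.31-fold for FASN and 3.41-fold for SREBF1. That median is over all 12 libraries, treated and control, of sets tabled apart. For SREBF1 the HCC827 mean was 44.3 FPKM, against 10.8 in set A control and 17.1 in set B control. SREBF1 shares 6.92% of its exon bases with RAI1 on the opposite strand, at 23.6 and 24.6 FPKM in HCC827 and 6.51 to 13.5 in NCI-H1975.

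SREBF2 did not follow SREBF1, with 30.6 and 31.6 FPKM in HCC827, inside the NCI-H1975 range of 20.1 to 44.5. That range spans a gap between the sets. HCC827 lay below every set B library (36.01 to 44.5 FPKM) and above every set A library but magnolin replicate 2 (37.1 FPKM). INSIG1 was at 57.9 and 58.7 FPKM in HCC827, just above the NCI-H1975 highest of 54.2. Among sterol enzymes, MVD was at 23.1 and 25.7 FPKM in HCC827, against 5.09 to 11.8 in NCI-H1975. FDFT1 was at 65.7 and 61.7 FPKM in HCC827, against 27.9 to 40.6 in NCI-H1975. Both enzymes lay beyond the whole NCI-H1975 range. ACAT2 (14.1 and 12.5 FPKM) and HMGCS1 (37.8 and 41.2 FPKM) lay within the NCI-H1975 range. The 3 members below were FADS2, IDI1 and SQLE. FADS2 was at 2.59 and 2.902 FPKM in HCC827, against 5.35 to 9.71 in NCI-H1975, while its neighbour FADS1, whose exons share 490 bases with it, was at 20.8 and 20.8 FPKM in HCC827, within the NCI-H1975 range. IDI1 was at 7.08 and 7.19 FPKM in HCC827, against 12.5 to 24.7 in NCI-H1975. SQLE was at 21.1 and 20.4 FPKM in HCC827, against 22.1 to 34.3 in NCI-H1975. Without the replicate 1 libraries of NCI-H1975, 6 members lay below, with ACSS2, PMVK and STARD4 joining, beside 4670 of 16284 genes over all.

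**Figure D4:**
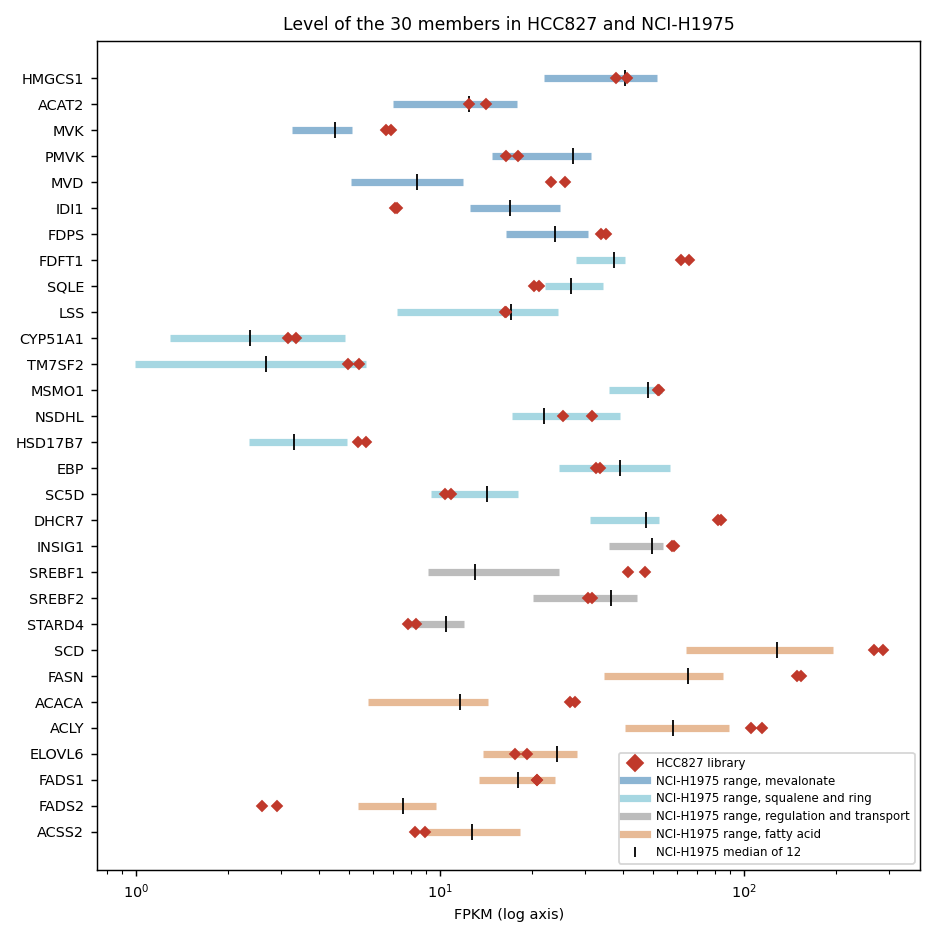
FPKM (log axis) of the 30 members in the 2 HCC827 libraries (diamonds), set against the range (bar) and median (tick) of the 12 NCI-H1975 libraries, coloured by role. Diamonds lie right of the bar for 12 members, among them SCD, FASN, ACACA and ACLY, and left of it for FADS2, IDI1 and SQLE.

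By level, SCD, FASN and ACLY ranked 1 to 3 of the 30 members both in HCC827 and in set B control of NCI-H1975. In HCC827 they averaged 276 ± 13.9, 151 ± 3.3 and 109.7 ± 6.2 FPKM (SD, n = 2), so neighbours in that order lay beyond their spread. In set B control they averaged 110.0 ± 6.9, 68.6 ± 3.9 and 57.9 ± 0.77 FPKM (SD, n = 2), again apart. MSMO1, DHCR7 and HMGCS1 came next in control at 50.4 ± 0.66, 50.3 ± 2.7 and 48.5 ± 1.2 FPKM, with the libraries of DHCR7 overlapping those of both others. The lowest were CYP51A1 at 2.79 ± 0.19 FPKM and TM7SF2 at 1.95 ± 0.033 FPKM in set B control.

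Genes around the pathway were read against the 8.33% of all genes that rose and the 11.6% that fell with the fraction against control in set B. Of 4 genes that process SREBP, INSIG2, a relative of INSIG1, was at 6.82 and 7.003 FPKM with the fraction and 5.09 and 4.23 in control and was the 1 that passed (log2 change 0.49, SE 0.13, adjusted p = 0.0456). Of 9 tested genes of sterol export and storage (10 listed), 1 rose and none fell, a share near that of all genes. It was ABCA1, which exports cholesterol, at 5.84 and 4.92 FPKM with the fraction, 3.72 and 3.18 with magnolin and 2.501 and 2.43 in control (log2 change 0.88, SE 0.12, adjusted p = 0.00564). Of 13 tested genes that supply or lengthen fatty acids or stand beside the pathway (14 listed), 2 fell and 1 rose with the fraction, again near the shares of all genes. TMEM97, a sterol-regulated membrane protein, was at 9.31 and 8.14 FPKM with the fraction, 15.4 and 16.1 with magnolin and 15.8 and 15.9 in control (log2 change -0.79, SE 0.086, adjusted p = 0.00318). The elongase ELOVL5 also fell (log2 change -0.47, SE 0.097, adjusted p = 0.0228), and the acyl-CoA synthetase ACSL5 rose (log2 change 0.41, SE 0.083, adjusted p = 0.0218).

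Of 7 genes of mitochondrial or peroxisomal fatty acid oxidation, 3 rose with the fraction against control in set B and none fell, beside 8.33% and 11.6% of all genes. ACADVL, the very long chain acyl-CoA dehydrogenase, was at 228 and 266 FPKM with the fraction, 148 and 149 with magnolin and 134 and 131 in control (log2 change 0.89, SE 0.086, adjusted p = 0.00233). HADHB and HADHA encode the subunits of the trifunctional protein that follows it. HADHB was at 41.7 and 38.7 FPKM with the fraction, 31.6 and 32.03 with magnolin and 23.9 and 25.4 in control (log2 change 0.69, SE 0.074, adjusted p = 0.00315). HADHA was at 61.4 and 56.7 FPKM with the fraction, 53.9 and 53.97 with magnolin and 47.98 and 46.7 in control (log2 change 0.31, SE 0.070, adjusted p = 0.0292). The fraction also differed from magnolin for ACADVL (0.72), HADHB (0.33), ABCA1 (0.52), TMEM97 (-0.79) and ELOVL5 (-0.45), as log2 changes that passed in limma. For magnolin against control in set B limma called 0 genes in each of these 4 lists, and without adjustment 1 gene of SREBP processing, 1 of export, 2 of supply and 3 of oxidation had a p under 0.05. In set A, and with both sets fitted together, limma called 0 genes of these 4 lists in every comparison. The calls named here thus rest on set B.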

How the data were processed

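The authors deposited FPKM per gene in 3 tables (NCI-H1975 set A, NCI-H1975 set B, HCC827), on hg38 per the submitters' processing notes. Per the labels' protocols, RNA was extracted, checked on a bioanalyzer and made into libraries with an NEB kit; the sources used here name no aligner, counter or strand setting. For HCC827, 2 columns bear names that fit no label and were left out, so resistant against parental cells was not analysed here.

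Genes reaching 1 FPKM in 2 or more of the libraries fitted were tested on log2(FPKM + 1), which understates changes of low genes, with limma 3.58.1 (empirical Bayes with a mean trend, R 4.3.3), the 3 groups sharing 1 estimate of spread. Adjustment was by Benjamini-Hochberg over all genes tested, with a threshold of 0.05. The scripts were tested on simulated data. FPKM times gene length came out as whole reads for 100% of values up to 2000 reads (tolerance 0.05), so reads were rebuilt for depth and for voom, which called 4115 genes for the fraction against control, 575 for magnolin against control and 3330 for the fraction against magnolin in set B. Counting error limits precision for low genes.

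Same-numbered libraries deviated together in set A (correlation of deviations from group means 0.742 to 0.781 over 6 pairs) and not in set B (-0.0279 to 0.0299 over 6 pairs). With 2 libraries a group these deviations mirror each other, so both numbers of a set give the same correlation and the 6 pairs are not independent. Over all 4 replicates the correlation was 0.29 to 0.84. Every pair of libraries differed beyond sampling noise. Alternatives were the replicate block, a pseudocount of 0.1, no filter, median-ratio rescaling, voom and leaving out each library. Named with values in every NCI-H1975 library were INSIG1, SREBF1, SREBF2, HMGCS1, SQLE, SCD, FASN, ACLY and each member called in a comparison. HCC827 library values are given for part of these. Other HCC827 values, and set A values of other members, are mostly given as means, ranges or counts. The members and lists were chosen with earlier results of these data known.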

Additional observations from a re-analysis of the deposited data

Results flagged for a closer look

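In groups of 4 NCI-H1975 libraries, 3 of 90 group values held 1 library far from the other 3 by a gap test, and chance flags about 1 in 20 groups. NSDHL, a sterol ring enzyme, was at 38.9 FPKM in fraction replicate 1, against 17.2 to 19.1 in the other 3 fraction libraries. NSDHL was also at 38.6 FPKM in magnolin replicate 1, against 20.8 to 22.7 in the other 3 magnolin libraries. SREBF2 was at 20.3 FPKM in magnolin replicate 1, against 36.01 to 39.5 in the other 3 magnolin libraries. All of these are replicate 1 libraries, which also held EPCAM at 172 to 193 FPKM. For SREBF2 the other replicate 1 libraries stood near this value, at 22.1 FPKM with the fraction and 20.1 in control. Magnolin replicate 2, at 37.1 FPKM, was the highest of set A, and these groups of 4 libraries join 2 sets tabled apart.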

How the results depend on the processing

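No called change of a member turned direction under any alternative. Of members that did not pass in set B, the sign turned under at least 1 alternative for 6 of 20 for the fraction against control (ACACA, ACLY, CYP51A1, DHCR7, LSS and MVD), 7 of 21 for the fraction against magnolin and 9 of 30 for magnolin against control. For the fraction against control in set B, 10 members passed as reported, 10 with a pseudocount of 0.1, 9 with no filter, 11 after rescaling, 14 with voom and 3 to 13 with 1 library left out. HMGCS1 and ACAT2 passed in 11 of 11 alternatives, SCD and ELOVL6 in 10. For the fraction against magnolin it was 9 as reported, 9 with the pseudocount, 6 with no filter, 10 after rescaling (4 higher and 6 lower, against 1 and 8), 13 with voom and 0 to 10 with 1 library left out; HSD17B7 passed in 2 of 11, SREBF1 and EBP in 4. The replicate block, whose numbers do not pair the set B libraries (correlations of -0.0279 to 0.0299), gave 11 for the fraction against control, adding INSIG1 (adjusted p = 0.0415 in limma), and 7 for the fraction against magnolin. In set A the block gave 1 for magnolin against control.

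Over all genes, calls in set B with the block, no filter and voom were 2156, 1598 and 4115 for the fraction against control (2918 as reported), 43, 0 and 575 for magnolin against control (92), and 1311, 752 and 3330 for the fraction against magnolin (2188). With 1 library left out, which leaves a group with 1 library, calls over all genes moved as well. With 1 replicate number left out, members below control in all pairs were 7 to 13 for the fraction and 1 to 4 for magnolin, and members above were 4 to 6 for the fraction and 9 to 11 for magnolin. Of all 15428 genes, 2349 to 3517 were then below for the fraction and 2010 to 2344 for magnolin, and 2359 to 3370 and 2225 to 2814 above. Rescaling gave 6 members above for the fraction (3 as reported) and 6 for magnolin (9). Without the replicate 1 libraries HCC827 lay below for 6 members and above for 13, beside 4670 and 3401 of 16284 genes over all. After rescaling it lay below for 2 and above for 13, beside 2915 and 3203 genes. Fewer pairs or libraries to satisfy raise such counts by construction; other causes were not tested. These settings on pairs and on HCC827 were chosen after seeing the data. Resistant against parental HCC827 was not run.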

Other observations

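Within set A, 9 members were higher in replicate 1 than in replicate 2 in all 3 groups (ACLY, CYP51A1, FASN, IDI1, INSIG1, MVD, NSDHL, SCD and SQLE), 6 were lower in all 3 (ACAT2, ELOVL6, HMGCS1, LSS, SREBF2 and STARD4) and 15 were mixed. The same split over all genes was not counted, so these counts do not set the members apart from other genes. The median difference between these replicates was 0.23 to 0.31 over members and 0.39 to 0.41 over all genes, on the log2 scale. ACLY was at 89.05 FPKM in replicate 1 and 43.3 in replicate 2 with the fraction, 71.5 and 50.2 with magnolin, and 72.9 and 40.7 in control. HMGCS1 showed the opposite order, with 21.95 FPKM in replicate 1 and 39.5 in replicate 2 with the fraction, 23.8 and 41.8 with magnolin, and 36.6 and 45.5 in control. No test was made, since the labels give no difference between these replicates.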
